A study of Mus musculus with 6 samples.

Results

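The genes Bcl11a, Bcl11b, Gata3, Cd3d, Cd3e, Cd3g, Zap70, Lat, Cd28 and Cd5, which act in T lineage commitment and T cell receptor signalling, were followed in sorted mouse haematopoietic stem cells with normal or reduced PU.1. They were read by 22 probe sets, of 44991 in all, taken wherever the platform annotation gave a member as the only gene of a probe set. The 10 genes were chosen from earlier results of the same comparison, in which Bcl11b had stood out, so their differences between the groups are a description and carry no test. The samples were 6 Affymetrix Mouse Genome 430 2.0 arrays of bone marrow cells, 3 from wildtype (WT) animals and 3 from PU.1 knockdown (KD) animals. Each array held a pool of RNA from 3 animals. PU.1, the ETS family transcription factor encoded by Spi1, was the targeted gene. The sources used here do not say by which allele PU.1 was lowered, which strain and age the animals had, or which surface markers defined the sort.

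A T cell recognises antigen through its receptor, whose signal enters the cell through the CD3 chains, the kinase ZAP-70 and the adaptor LAT. Progenitors reach that state in the thymus, where Notch signals induce GATA3 and then BCL11B, and BCL11B closes off other fates. PU.1 is present in the earliest thymic progenitors and is switched off as they commit to the T lineage. BCL11A is the close relative of BCL11B that stem cells and B lymphoid progenitors use, and it is also known as a repressor of embryonic and fetal globin genes.

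In the knockdown pools Bcl11b had higher values on its brightest probe set, a mean 1.74 times that of the wildtype pools after 16 was added to every intensity. Gata3 and Lat had higher means too, but each rested on knockdown pool 3. Cd28 had lower means, and its wildtype mean was raised by wildtype pool 1. Cd3d, Cd3g and Cd5 stayed below the array median on all 6 arrays, in both groups. Of the 22 probe sets, 0 had a limma p under 0.05 after Benjamini-Hochberg adjustment over all 44991 probe sets, of which 0% were called. Before adjustment 3 of the 22 were under 0.05, beside 7.11% of all probe sets.

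Intensities are the authors' linear values. Differences are knockdown minus wildtype on the scale log2(intensity + 16) after quantile normalisation, with their standard errors (SE) from limma, and means are given ± SD with n = 3 pools per group. Array medians were 81.4 to 91.5 and serve here to mark dim probe sets only, since intensities of different probe sets do not measure relative amounts. Spi1 itself read 1120, 718 and 1053 in wildtype pools 1 to 3 and 362, 360 and 119 in knockdown pools 1 to 3. Of 8 stem and progenitor cell markers measured, among them Kit, Hlf, Procr and Cd34, 7 were above the array median on all 6 arrays. The exception, Tek, had a difference of -0.99 (SE 0.21) with groups that did not overlap. Mecom differed by -0.82 (SE 0.34), and its groups overlapped. Of all 8 markers, 6 had lower and 2 had higher knockdown means, with a median difference of -0.21. Wildtype pool 2 had the highest mean of these markers, at a log2 value of 10.26 beside 9.37 to 9.56 in the other 5 pools, and the lowest means of neutrophil (10.63), erythroid (7.92) and mast cell and basophil (6.23) markers. Some marker lists of other lineages were also mostly above the array median on all 6 arrays. These were 7 of 8 neutrophil, 5 of 5 erythroid, 5 of 6 monocyte and macrophage and 5 of 7 plasmacytoid dendritic cell markers. Smaller shares were so for B cell (3 of 9), mast cell and basophil (3 of 8), platelet and megakaryocyte (3 of 7), T cell (1 of 7) and NK cell (1 of 6) markers. With pooled bone marrow RNA, more cells of a type and more RNA per cell cannot be told apart.

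The promoters of 4 members are shown because they belong to the paralogues Bcl11b and Bcl11a, to Gata3, a second regulator of T lineage entry, and to Cd3g, the member whose values followed those of Bcl11b most closely. The sequences are from RefSeq on GRCm38.p6, run 5′ to 3′ on the gene's strand, and cover 250 bases before and 50 bases from the annotated start of transcription. They lie at chr12:108003365-108003664 (minus strand), chr11:24080445-24080744 (plus strand), chr2:9878551-9878850 (minus strand) and chr9:44980382-44980681 (minus strand). Capitals mark matches on either strand to the PU box GAGGAA, the TCF/LEF letters CTTTGA, the RUNX letters TGTGGT, the AP-1 letters TGANTCA, the BCL11A letters TGACCA and the GATA letters AGATAA, as well as TGATAA, then AGATAG, and also TGATAG. None of the marked matches overlap one another.
Bcl11b: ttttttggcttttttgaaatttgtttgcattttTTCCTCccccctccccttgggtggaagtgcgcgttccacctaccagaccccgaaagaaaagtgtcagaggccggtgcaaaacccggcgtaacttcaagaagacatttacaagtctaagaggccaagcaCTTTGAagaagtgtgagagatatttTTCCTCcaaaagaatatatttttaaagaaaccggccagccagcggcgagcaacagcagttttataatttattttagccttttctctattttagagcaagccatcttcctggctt
Bcl11a: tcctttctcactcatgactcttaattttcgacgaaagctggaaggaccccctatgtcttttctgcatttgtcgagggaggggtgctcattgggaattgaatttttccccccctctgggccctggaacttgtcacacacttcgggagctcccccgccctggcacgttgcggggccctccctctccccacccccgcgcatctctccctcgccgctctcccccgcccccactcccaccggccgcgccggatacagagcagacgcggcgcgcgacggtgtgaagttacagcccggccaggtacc
Gata3: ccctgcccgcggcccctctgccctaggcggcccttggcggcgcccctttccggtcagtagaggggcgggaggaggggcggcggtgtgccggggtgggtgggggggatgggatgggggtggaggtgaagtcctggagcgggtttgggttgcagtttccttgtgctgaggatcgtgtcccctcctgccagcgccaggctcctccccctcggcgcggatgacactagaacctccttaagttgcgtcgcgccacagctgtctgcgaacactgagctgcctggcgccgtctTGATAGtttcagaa
Cd3g: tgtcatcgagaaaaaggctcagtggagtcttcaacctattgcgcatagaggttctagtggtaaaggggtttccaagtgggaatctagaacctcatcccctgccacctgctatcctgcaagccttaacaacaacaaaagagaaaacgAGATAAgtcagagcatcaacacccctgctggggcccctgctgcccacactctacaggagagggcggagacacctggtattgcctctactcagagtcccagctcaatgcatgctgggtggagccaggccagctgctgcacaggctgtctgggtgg

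Bcl11b had 2 matches to the PU box, at -217 to -212 and -64 to -59 counted from the start base as 0, and 1 to the TCF/LEF letters at -89 to -84. Gata3 had 1 GATA match, at 36 to 41, downstream of the start, and Cd3g had 1, at -104 to -99. Bcl11a held none of the letters marked. RefSeq promoters were found for 9 of the 10 members, all but Cd28, with 11 start sites in all. Of these 11, 7 held a PU box, those of Bcl11b, Cd3d, Cd3e, Lat and Cd5 and 2 of the 3 starts of Zap70. So did 28.3% of 32851 promoters of the same length in the mouse table, counted with 1 chromosome left out. These 32851 are meant by all promoters below. GATA letters were in 2 of 11 (29.8% of all promoters), TCF/LEF letters in 3 (16%), RUNX letters in 2 (16.8%), and AP-1 and BCL11A letters in 0 (7.81% and 13.6%). The bare ETS core GGAA, which the PU box contains, was in 10 of 11 and in 96.0% of all promoters. A match is a stretch of letters and was not tested for binding.

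Bcl11b encodes the zinc finger factor that commits progenitors to the T lineage. On probe set 1450339_a_at, wildtype pools 1, 2 and 3 read 85.1, 97.4 and 109 intensity units and knockdown pools 1, 2 and 3 read 136, 191 and 189. All 3 knockdown pools lay above all 3 wildtype pools, and the lowest knockdown value was that of pool 1. The log2 means were 6.78 ± 0.16 and 7.58 ± 0.19, a difference of 0.80 (SE 0.16, 95% interval 0.43 to 1.17). With 1 array left out the difference ran from 0.72 to 0.91.

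The other 3 Bcl11b probe sets were dimmer and less uniform. Probe set 1435227_at read 40.02, 72.9 and 38.8 in wildtype and 49.1, 85.3 and 126 in knockdown pools 1 to 3, and the groups overlapped through wildtype pool 2 (difference 0.65, SE 0.30, or 0.41 when knockdown pool 3 is left out). Probe set 1452966_at read 28.6 to 37.4 in wildtype and 31.4 to 52.5 in knockdown pools (difference 0.30, SE 0.17, or 0.18 when knockdown pool 2 is left out). Probe set 1438784_at, the dimmest, gave 20.0 to 44.4 and 20.4 to 39.1 (difference -0.04, SE 0.24), and its sign turned in 4 of 13 alternative settings. Over the 6 arrays the 4 probe sets correlated with each other at a median Pearson r of 0.36, between -0.19 and 0.76. Thus 3 of the 4 probe sets had higher knockdown means, and 1 of the 4 separated the groups. With array medians centred in place of quantile normalisation, all 4 had higher means, but for 1438784_at the difference was only 0.004. With the values as deposited it was -0.07, and 3 of the 4 had higher means.

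Bcl11a had 4 of its 7 probe sets above the array median on all 6 arrays, and its groups overlapped on every one of the 7. Its brightest probe set, 1419406_a_at, read 972, 1531 and 1069 in wildtype pools 1 to 3 and 1191, 1468 and 1256 in knockdown pools 1 to 3. The highest value was that of wildtype pool 2 and the lowest that of wildtype pool 1, so the wildtype pools spanned the knockdown pools. The difference was 0.20 (SE 0.19, 95% interval -0.23 to 0.63). Leaving out wildtype pool 1 gave 0.07 and leaving out wildtype pool 2 gave 0.37. Of the 7 probe sets, 5 had higher and 2 had lower knockdown means, from -0.20 to 0.53. With the values as deposited 3 had higher and 4 had lower means.

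The largest Bcl11a difference was that of 1426552_a_at, with 91.0, 171 and 113 in wildtype and 194, 187 and 133 in knockdown pools (difference 0.53, SE 0.24). On 1456632_at the order was the opposite, with 400, 756 and 426 against 324, 542 and 425 (difference -0.19, SE 0.25), and without wildtype pool 2 that difference was 0.06. Wildtype pool 2 was highest on 1419406_a_at, 1456632_at, 1457072_at and 1447334_at, the same pool that had the highest mean of stem and progenitor markers. The part of cell composition in these values was not tested.

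**Figure D1:**
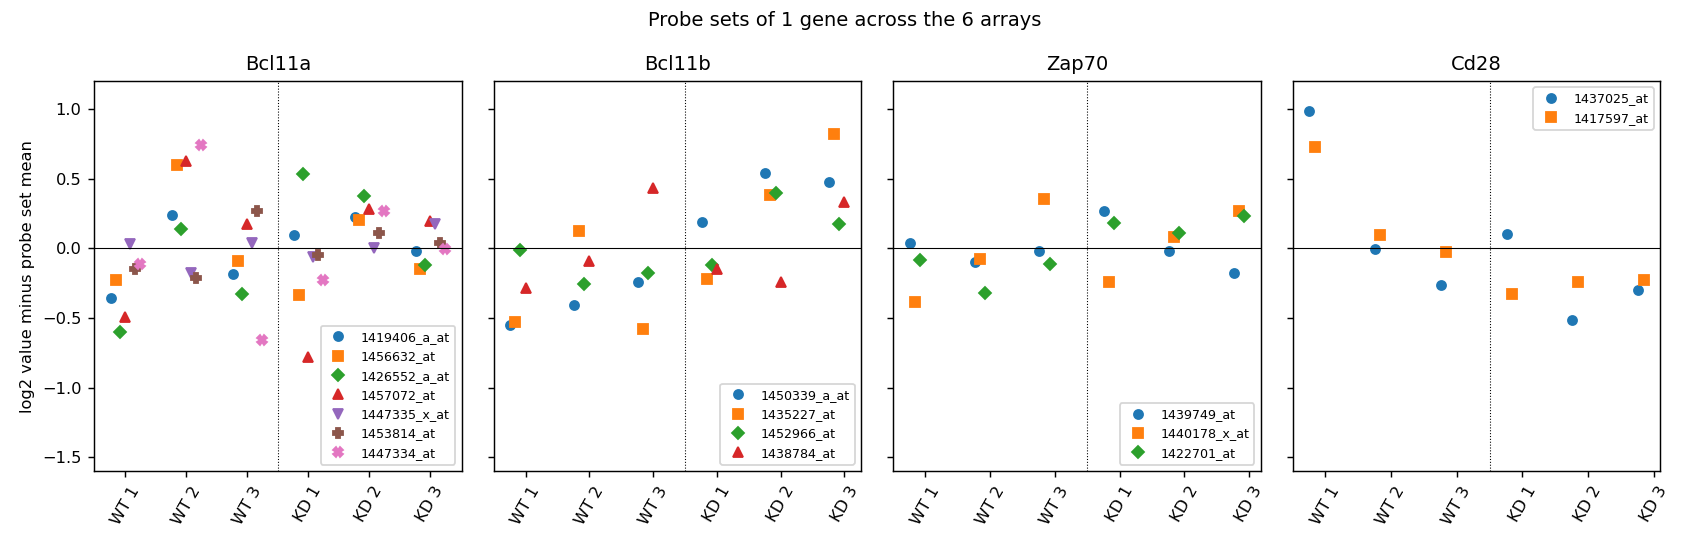
Log2 values of every probe set of Bcl11a, Bcl11b, Zap70 and Cd28 on the 6 arrays (x axis, wildtype pools left and knockdown pools right of the dotted line), each as its difference from that probe set's own mean. The 2 Cd28 probe sets share their highest point in wildtype pool 1, several Bcl11a probe sets share a high point in wildtype pool 2, and 3 of 4 Bcl11b probe sets lie higher in knockdown pools 2 and 3 than on average.

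Gata3 encodes the zinc finger factor that T cells need from their first steps and that type 2 lymphoid cells keep. Its only probe set, 1448886_at, read 77.4, 157 and 61.4 in wildtype pools 1 to 3 and 56.2, 134 and 244 in knockdown pools 1 to 3. Knockdown pool 3 was highest, while knockdown pool 1 was the lowest of all 6 arrays in intensity, so the groups overlapped. The difference was 0.47 (SE 0.45, 95% interval -0.58 to 1.52), the widest interval among the 22 probe sets. Without knockdown pool 3 it was 0.05, and without knockdown pool 1 it was 0.94. The probe set was above the array median on 3 of the 6 arrays.

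Knockdown pool 3 was also the pool with the lowest Spi1 and with the highest values of 5 of the 10 members by their brightest probe sets, namely Gata3, Cd3d, Cd3g, Lat and Cd5. It also had the highest mean of 8 mast cell and basophil markers, a log2 value of 8.78 beside 7.70 and 7.74 in the other knockdown pools and 6.23 to 7.42 in wildtype pools. Of these markers 7 of 8 had higher means in the knockdown pools, with summed intensities of 570 to 2850 in wildtype and 2050 to 4530 in knockdown pools, and none was at the floor. The same pool had the lowest means of B cell markers (6.49 beside 7.31 to 7.87 in the other 5 pools), of plasmacytoid dendritic cell markers (7.80 beside 8.38 to 8.93) and of monocyte and macrophage markers (7.54 beside 8.12 to 9.27). Mast cells are known to use Lat in signalling from their Fc receptor. The part of any of these cells in the values of Gata3 and Lat was not tested.

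The CD3 chains carry the motifs that the receptor's kinases phosphorylate, and the genes Cd3d, Cd3e and Cd3g are neighbours on mouse chromosome 9. Cd3g (1419178_at) read 23.9, 19.7 and 28.3 in wildtype and 25.7, 36.3 and 41.9 in knockdown pools 1 to 3. Knockdown pools 2 and 3 lay above every wildtype pool, and knockdown pool 1 lay below wildtype pool 3 (difference 0.37, SE 0.16, 95% interval -0.01 to 0.75). Cd3d (1422828_at) read 30.4, 36.3 and 53.6 in wildtype and 50.1, 27.4 and 56.3 in knockdown pools, with both the lowest and the highest value among the knockdown pools (difference 0.15, SE 0.24). With 1 array left out it ran from 0.02, without wildtype pool 1 or knockdown pool 3, to 0.37, without knockdown pool 2. Both genes were below the array median on all 6 arrays.

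Cd3e (1422105_at) was the only CD3 chain above the array median on all 6 arrays. It read 137, 123 and 131 in wildtype and 127, 87.5 and 127 in knockdown pools, with knockdown pool 2 alone standing low (difference -0.10, SE 0.18). Without knockdown pool 2 the difference was 0.06. Cd3e and Cd3g correlated over the 6 arrays at r = -0.39, Cd3d and Cd3e at 0.59, and Cd3d and Cd3g at 0.23. Knockdown pool 3 was highest for Cd3d and Cd3g but not for Cd3e.

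Zap70 encodes the kinase that docks on phosphorylated CD3 chains. Probe set 1422701_at read 44.4, 34.5 and 44.2 in wildtype and 52.2, 50.7 and 58.8 in knockdown pools, below the array median throughout. Every knockdown pool was above every wildtype pool (log2 means 5.80 ± 0.13 and 6.15 ± 0.06, difference 0.35, SE 0.14, 95% interval 0.03 to 0.67). The brighter probe sets did not show this. On 1439749_at, for which the annotation names no transcript, values were 338 to 360 in wildtype and 308 to 368 in knockdown pools (difference 0.05, SE 0.16). On 1440178_x_at, whose suffix marks probes that can bind other transcripts, they were 119 to 206 and 118 to 194 (difference 0.07, SE 0.23). With the values as deposited both of these differences turned below 0, to -0.03 and -0.01.

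Lat encodes the membrane adaptor that ZAP-70 phosphorylates, and it is also used by mast cells and platelets. On 1460651_at it read 607, 906 and 684 in wildtype and 706, 675 and 1066 in knockdown pools 1 to 3. Knockdown pool 3 was highest, but wildtype pool 2 lay above knockdown pools 1 and 2 (difference 0.21, SE 0.21, 95% interval -0.27 to 0.69). Without knockdown pool 3 the difference was 0.05. Platelet and megakaryocyte markers had list means of 9.13 to 10.39 in wildtype and 7.10 to 9.09 in knockdown pools, and the part of platelet RNA in the Lat values was not tested.

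Cd28 encodes the costimulatory receptor that accompanies the T cell receptor signal. On 1417597_at it read 72.2, 39.98 and 36.7 in wildtype and 24.4, 27.4 and 28.5 in knockdown pools 1 to 3. Each knockdown pool was below each wildtype pool (difference -0.53, SE 0.21, 95% interval -1.02 to -0.05), and this was the only one of the 22 probe sets to separate in that direction. On 1437025_at it read 91.6, 37.0 and 29.5 in wildtype and 39.0, 20.9 and 27.1 in knockdown pools, which overlapped (difference -0.48, SE 0.33). Wildtype pool 1 was the highest array on both, which correlated at r = 0.86. Without it the differences were -0.30 and -0.10.

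Cd5, a surface protein that dampens T cell receptor signals, read 32.9, 33.2 and 42.1 in wildtype and 38.8, 36.7 and 42.4 in knockdown pools (1418353_at). The difference of 0.14 (SE 0.14) was about as large as its standard error, and the groups overlapped.

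**Figure D2:**
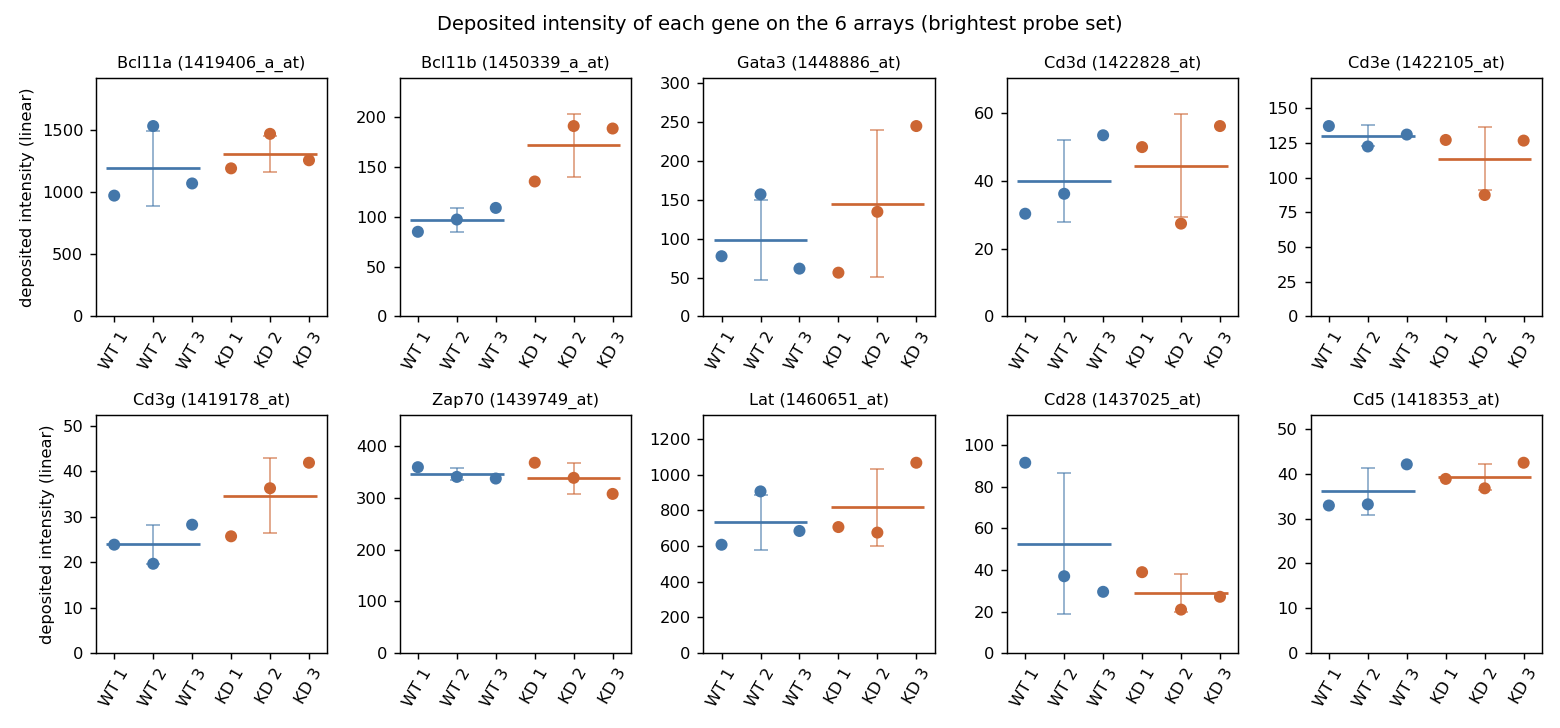
Deposited linear intensity (y axis, from 0) of the brightest probe set of each gene on the 3 wildtype (blue) and 3 knockdown (orange) arrays. Points are single pools, horizontal lines are group means and vertical bars are 1 SD. Only Bcl11b has all 3 knockdown points above all 3 wildtype points.

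Taken by the brightest probe set of each gene, 8 of the 10 members had higher and 2 had lower knockdown means, with a median difference of 0.17. Over all 18186 genes 53.4% had higher means and the median difference was 0.02. Without wildtype pool 1 or knockdown pool 3 the median of the members was 0.09 and 0.08. With the values as deposited, 7 of the 10 had higher means, beside 41.9% of all genes, and the medians were 0.12 and -0.04. Of the 22 probe sets, 16 had higher means, and 12 did with the values as deposited. Groups did not overlap for 3 of the 22, or 13.6%, beside 12.9% of all probe sets. In the upward direction there were 2, or 9.09%, beside 7.59%, and in the downward direction 1, or 4.55%, beside 5.26%. The members were picked with this contrast known, so nothing is read from these counts.

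**Figure D3:**
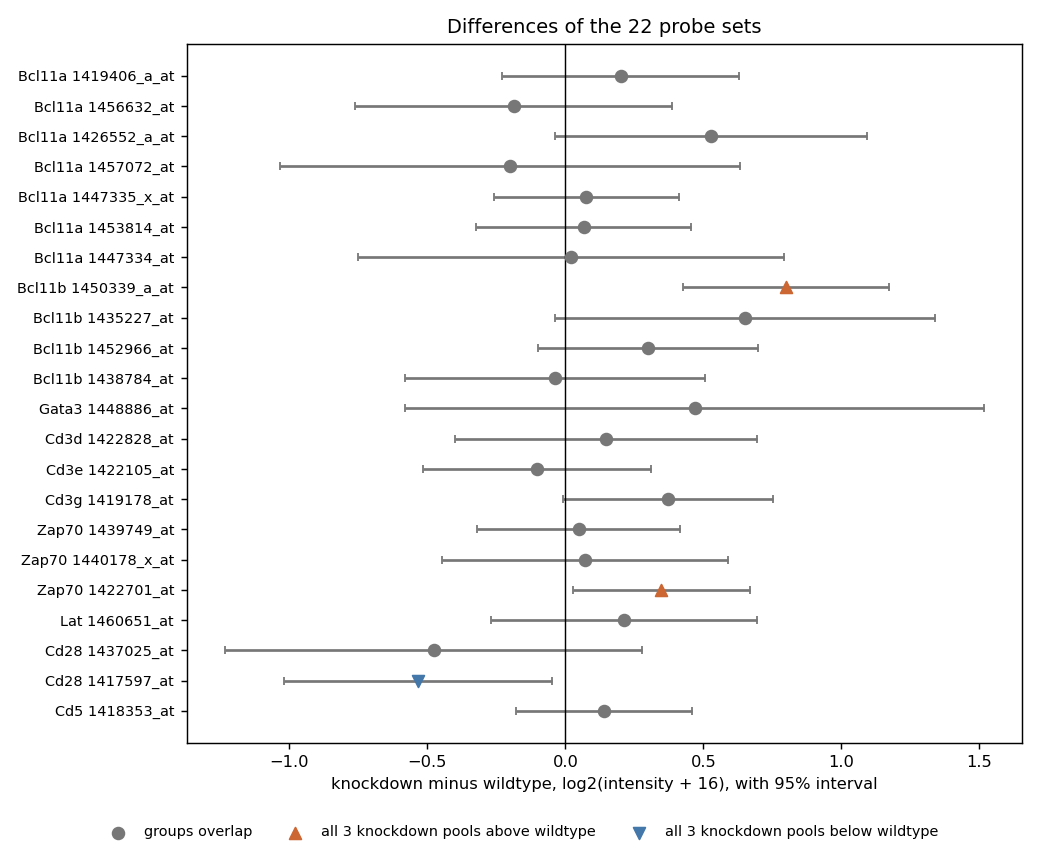
Knockdown minus wildtype difference of each of the 22 probe sets on the log2(intensity + 16) scale (x axis), with the 95% interval of the limma fit. Upward triangles (Bcl11b 1450339_a_at and Zap70 1422701_at) and the downward triangle (Cd28 1417597_at) mark probe sets whose groups did not overlap.

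Among the members, the pair most alike over the 6 arrays was Bcl11b with Cd3g (r = 0.90), followed by Cd3d with Cd5 (0.78) and Bcl11b with Cd5 (0.73). The least alike were Gata3 with Zap70 (-0.78) and Bcl11b with Cd28 (-0.71). Each gene was taken by its brightest probe set. For Zap70 that was 1439749_at, and the 3 Zap70 probe sets correlated with each other at only -0.58 to 0.22. The value for Gata3 with Zap70 therefore describes 1439749_at alone. These correlations describe 6 arrays that share 2 groups and 1 normalisation. Outside the members, 2679 genes were compared with Bcl11b, those with a probe set whose mean over the 6 arrays was above the median and a range of at least 1 log2 unit. The 5 most alike were the lectin receptor gene Clec4d (0.98), Metrnl (0.97), the transcription factor gene Maf (0.97 on 1447849_s_at), the fatty acid oxidation gene Acadl (0.96) and Trgv4, a variable segment of the T cell receptor gamma chain (0.96). Metrnl, Maf and Trgv4 lay below the median of 6.7 in every wildtype pool and passed that filter only through the knockdown pools. The most opposite were Lima1 (-0.97), Myom1 (-0.97) and Rhob (-0.95). Lima1 lay below the same median in every knockdown pool and passed the filter only through the wildtype pools. All of these genes were picked by their correlation with Bcl11b, so their differences between the groups follow from the search.

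Trgv4 (1422189_x_at) had log2 values of 6.55, 6.40 and 6.57 in wildtype and 7.11, 7.47 and 7.21 in knockdown pools. Its probe set can bind other transcripts. Maf had values of 5.71, 6.19 and 5.92 in wildtype and 7.32, 7.58 and 7.69 in knockdown pools on the probe set named above. Both were found by their likeness to Bcl11b, which has its groups apart, so their own separation follows from the search.

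Other genes of the T cell programme were taken from lists of 100 genes, of which 93 were measured and 7 were not analysed here. Of the 93, 0 passed the limma test over all probe sets (smallest Benjamini-Hochberg adjusted p 0.409, for Pdcd1). At an unadjusted p under 0.05 there were 9, or 9.68%, beside 7.63% of all genes.

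Among 21 receptor signalling genes beside the members, 16 had higher and 5 had lower knockdown means, with a median difference of 0.17, or 0.07 without wildtype pool 1 and 0.09 without knockdown pool 1. Trat1, an adaptor that stabilises the receptor complex, read 70.6, 64.4 and 81.3 in wildtype and 74.5, 102 and 140 in knockdown pools on 1437561_at (log2 difference 0.50, SE 0.20, limma adjusted p 0.676). On this normalised scale all knockdown pools lay above all wildtype pools, while in intensity knockdown pool 1 was below wildtype pool 3. Its dimmer probe set, 1427532_at, gave 21.2, 16.2 and 49.4 against 78.6, 63.98 and 137 (difference 1.34). Nck1, an adaptor of the actin skeleton, had a difference of 0.41 (SE 0.19).

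Lower in that list were Ptprc, the CD45 phosphatase gene of all white blood cells, and Cbl, a ubiquitin ligase gene that limits kinase signals. Ptprc (1422124_a_at) read 2053, 2845 and 2103 in wildtype and 847, 1535 and 1075 in knockdown pools, 0.497 of the wildtype level (difference -1.01, SE 0.22, limma adjusted p 0.473). Its second probe set differed by -0.94. For Cbl the difference was -0.49 (SE 0.15, limma adjusted p 0.574). Groups did not overlap for either gene.

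The 16 T cell surface genes had 11 higher and 5 lower means, and a median difference of 0.08. With the values as deposited 9 were higher and 7 lower. Pdcd1, the inhibitory receptor PD-1, read 60.7, 58.6 and 51.6 in wildtype and 99.98, 103 and 161 in knockdown pools (difference 0.96, SE 0.18). Cd7 read 89.5, 88.0 and 88.5 in wildtype and 117, 148 and 151 in knockdown pools (difference 0.63, SE 0.14, limma adjusted p 0.468). For both genes every knockdown pool was above every wildtype pool. Cd6 and Cd40lg, the lower genes of smallest p, differed by -0.11 (SE 0.15) and -0.14 (SE 0.22).

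The 19 genes of T lineage commitment were divided, 9 higher and 10 lower, with a median difference of -0.01, or 0.03 with array medians centred. Hes1, a direct Notch target, had log2 values of 6.62, 6.55 and 6.54 in wildtype and 7.24, 6.82 and 6.78 in knockdown pools (difference 0.38, SE 0.17, limma adjusted p 0.71). Il7r, the receptor gene of lymphoid progenitors, differed by 0.32 (SE 0.31). Lef1 and Ets1, transcription factors of developing T cells, differed by -0.45 (SE 0.28) and -0.33 (SE 0.19), and the groups overlapped.

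Of 12 NK and cytotoxic genes 10 had higher means, with a median difference of 0.23, or 0.10 without knockdown pool 3. Gzmb, a granule protease gene that mast cells share with killer cells, had the largest, with 28.9, 22.6 and 110 in wildtype and 217, 282 and 756 in knockdown pools (difference 2.69, SE 0.53, limma adjusted p 0.426). Ncr1, an NK cell receptor gene, differed by 0.39 (SE 0.17), with groups that did not overlap on the normalised scale, while in intensity knockdown pool 1 (95.5) was below wildtype pool 1 (102). Gzma and Klre1 had lower means, by -0.54 (SE 0.28) and -0.11 (SE 0.24).

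Among 11 partners of Gata3 and genes of type 2 lymphoid cells, 6 had higher and 5 had lower means, with a median difference of 0.01. With the values as deposited 3 had higher and 8 had lower means, and the median was -0.07. Zfpm1, the GATA cofactor FOG1, differed by 0.26 (SE 0.22) and the leukotriene receptor gene Ltb4r1 by 0.64 (SE 0.78). Maf by its brightest probe set, 1447945_at, was lower (-0.98, SE 0.42), whereas its other 5 probe sets had differences of 0.17 to 1.59, so its probe sets disagreed. Il5 differed by -0.42 (SE 0.22).

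The 14 partners and targets of Bcl11a had 8 higher and 6 lower means (median difference 0.08). With the values as deposited there were 7 of each (median -0.01), and with array medians centred 11 higher and 3 lower. Kdm1a, a histone demethylase gene of BCL11A repressor complexes, had log2 values of 9.29, 9.30 and 8.93 in wildtype and 9.78, 9.67 and 9.56 in knockdown pools (difference 0.50, SE 0.16, limma adjusted p 0.604). Chd4, the NuRD remodeller gene, differed by 0.30 (SE 0.15), with groups that did not overlap. Mta2 and Rcor1 differed by -0.09 (SE 0.13) and -0.06 (SE 0.17). The groups of Mta2 did not overlap either, by a narrow gap (10.037 in wildtype pool 1, 10.032 in knockdown pool 2).

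Markers of whole cell types were set beside the members. Of 7 T cell markers measured, 3 of them members, 6 had higher means in the knockdown pools. Their mean log2 value was 5.94, 6.24 and 6.13 in wildtype and 6.34, 6.27 and 6.68 in knockdown pools, and their summed intensity was 404 to 518 and 470 to 681. Cd3d, Cd3g and Cd2 were below the array median on all 6 arrays, and none was at the floor. Cd2 read 14.7, 29.5 and 18.1 in wildtype and 23.1, 29.5 and 51.6 in knockdown pools. NK markers had means of 6.70 to 6.96 in wildtype and 6.97 to 7.31 in knockdown pools, with Klre1, Prf1 and Eomes below the array median throughout. The part of T, NK or mast cells in the values of the members was not tested.

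**Figure D4:**
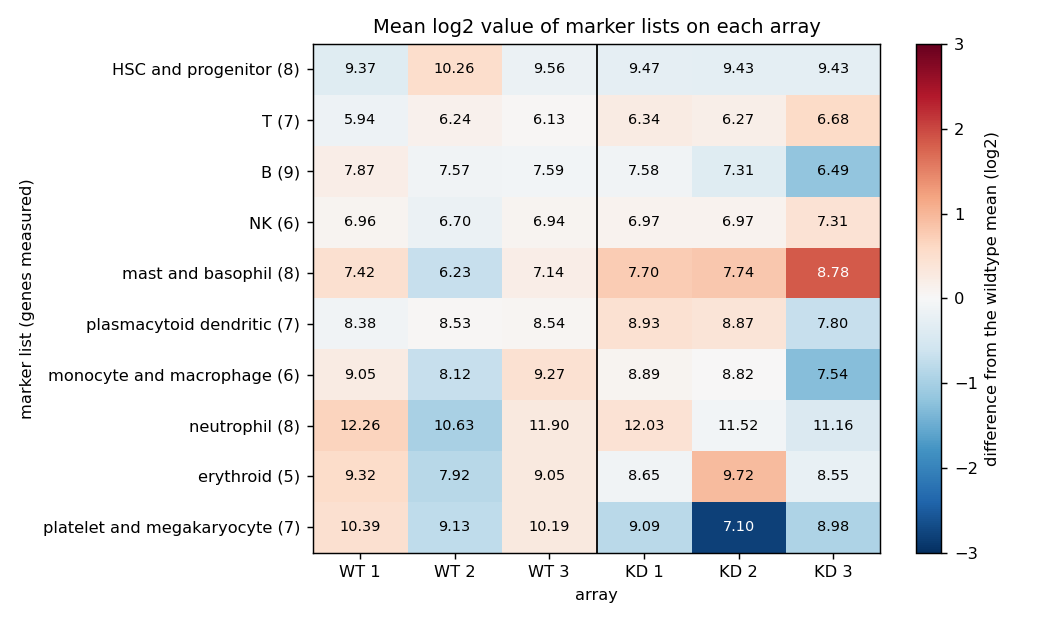
Mean log2 value (number in each cell) of 10 marker lists on the 6 arrays (columns), with the number of genes measured in brackets. Colour gives the difference from the mean of the 3 wildtype pools. On this normalised scale T, NK and mast and basophil lists are higher in all knockdown pools than in all wildtype pools, the platelet list is lower in all of them, and the other lists overlap. The gap is narrow for T (6.24 in wildtype pool 2, 6.27 in knockdown pool 2). It is also narrow for NK (6.96 in wildtype pool 1, 6.97 in knockdown pool 1). Summed intensities of the T, NK and mast and basophil lists overlap between the groups. The T list includes the members Cd3d, Cd3e and Cd3g.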

How the data were processed

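The authors' deposited table holds 1 processed intensity per probe set and array, on a linear scale. Per the labels' protocols, total RNA was amplified in 2 rounds of reverse transcription and in-vitro transcription and hybridised in 1 channel. How these intensities were scaled, and with which software, is not given in the sources used here. Such amplification favours 3' ends and adds noise to weak transcripts.

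Intensities under 1 were set to 1, log2(intensity + 16) was taken, which understates folds of dim probe sets, and the 6 arrays were quantile normalised. Each of 44991 probe sets was tested with lmFit and eBayes (limma 3.58.1, R 4.3.3; 7.81 degrees of freedom), two-sided, with Benjamini-Hochberg adjustment and a threshold of 0.05. The script was tested on simulated data. Of the probe sets, 34921 had 1 gene symbol, 930 several and 9140 none. A gene in a list stands by its brightest probe set on average. Members, lists and rules were chosen with earlier results of these data known.

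Named were all members, the 2 list genes of smallest p per direction, and the genes most and least like Bcl11b by Pearson correlation. Trgv4 and Maf were given values, and second probe sets of Trat1, Ptprc and Maf and the markers Spi1, Cd2, Tek and Mecom were named, after their values were seen. Replicates were pools of separate animals, and having 3 per group limits the precision. Alternatives were other scalings, pseudocounts, filters, array weights, an eBayes trend, the pool number as a block, and leaving out each array. Figures were drawn with matplotlib 3.10.9.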

Additional observations from a re-analysis of the deposited data

How the results depend on the processing

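With every array, 0 probe sets were called under all 9 other settings of scaling, pseudocount, filter, weighting, trend and replicate block. Leaving out 1 array gave 0 to 2 called probe sets, namely 2 without wildtype pool 2, 1 each without wildtype pool 1, wildtype pool 3 and knockdown pool 2, and 0 without knockdown pool 1 or 3. The median difference of the members stayed between 0.08 and 0.26. The median of the T cell surface list was 0.08, and leaving out 1 array gave 0.096 to 0.29, the highest without knockdown pool 2. Left out in the same way, the other list medians ran from 0.07 to 0.20 (receptor signalling), 0.10 to 0.27 (NK and cytotoxic), 0.02 to 0.15 (Bcl11a partners), -0.11 to -0.01 (T lineage commitment) and -0.17 to 0.01 (Gata3 partners). Of 304 values of member probe sets under the alternatives, 22 had the other sign, and 13 of the 22 probe sets kept their sign in all of them, among them Bcl11b 1450339_a_at, which ran from 0.60 (pseudocount 64) to 0.91. The 304 include values under the replicate block, the eBayes trend and the filters, which cannot change a probe set's difference in this design. Those values repeat the main ones and say nothing about how stable a sign is. Both groups share the same pool numbers. Deviations of same-numbered pools correlated at 0.18, 0.06 and -0.04, and those of differently numbered pools at -0.20 to 0.15. So few values cannot decide whether the numbers pair the arrays. With the replicate block, 0 probe sets were called and 3314 had an unadjusted limma p under 0.05, in place of 3200. Of the 26994 and 17996 probe sets kept by the filters on dim ones, 2094 and 1475 had such a p. The block cannot change the median difference of the members, which was 0.17 as in the main fit. Dim signals limit Cd3d, Cd3g, Cd5, Cd28 and part of the Bcl11b, Bcl11a and Zap70 probe sets, which lie near or below the array median. They also limit Gata3, which was above the array median on 3 of 6 arrays. Cd3e came near it in knockdown pool 2, with 87.5 beside an array median of 85.7.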
